A study of Rattus norvegicus with 458 samples.

Results

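Soleus, a postural muscle of the lower hindlimb, was compared with biceps femoris, a thigh muscle, in a body-wide survey of small RNA sequencing in naive Sprague Dawley rats. The members are the libraries that GEO labels Muscle - Soleus and Muscle - Biceps, 10 of each, out of 215 libraries of 23 tissues. Both muscles came from the same 10 rats, 5 male (numbered 2 to 6) and 5 female (numbered 7 to 11), aged 12 to 13 weeks, so each rat gives 1 soleus and 1 biceps value. The rats were untreated and carried no engineered allele, each library is a piece of whole muscle kept in RNAlater, and no fibre typing is given with the samples.

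Skeletal muscle is built from slow fibres, which contract slowly, resist fatigue and use the slow myosin heavy chain encoded by Myh7, and fast fibres, which use other myosin heavy chains. Rat soleus is known as a mostly slow muscle and biceps femoris as a mostly fast one. A family of miRNAs is carried inside myosin heavy chain genes: miR-208a in Myh6 (the alpha, atrial and ventricular form), miR-208b in Myh7 and miR-499 in Myh7b, and each is made together with the transcript of its host gene. The other miRNAs long known from striated muscle, the myomiRs miR-1, miR-133a, miR-206 and miR-133b, come from separate loci, and miR-206 and miR-133b lie next to each other and are read mainly in skeletal muscle. A mature miRNA pairs with messenger RNAs chiefly through its seed, bases 2 to 8 from the 5′ end.

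The mature sequences of the miRNAs that separated the muscles most are given 5′ to 3′ from RefSeq, build GRCr8, with the seed in capitals. A RefSeq entry was found for 92 of 99 names sought. Positions refer to the same build, and the gene named is one whose span covers the site, since exons were not used here. The first set holds the myosin-encoded miRNAs and the pair of miR-206 and miR-133b, on chr15:32421648-32421665 minus strand (miR-208b-3p, inside Myh7), chr15:32395568-32395585 minus strand (miR-208a-3p, inside Myh6), chr3:164570616-164570636 plus strand (miR-499-5p, inside Myh7b), chr9:30590747-30590768 plus strand (miR-206-3p) and chr9:30594629-30594650 plus strand (miR-133b-3p), the latter pair inside the same long noncoding RNA gene, LOC120094648.
miR-208b-3p: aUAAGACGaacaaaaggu
miR-208a-3p: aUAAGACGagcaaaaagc
miR-499-5p: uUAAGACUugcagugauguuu
miR-206-3p: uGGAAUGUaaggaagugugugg
miR-133b-3p: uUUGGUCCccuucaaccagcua
The miR-208 paralogs share their seed and differ at 3 of the 18 bases compared, G10A, A16G and C18U, each written as the miR-208a-3p base, its position from 1 at the 5′ end and the miR-208b-3p base. The RefSeq entry of miR-208b-3p is shorter than the form most often counted in these muscles, which ran 4 bases further and held 53.6% of the name's counts.

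The second set shows miRNAs that were higher in soleus and that sit together on chromosome 19: miR-24-2-5p (chr19:40859517-40859538), miR-27a-3p (chr19:40859614-40859634) and miR-23a-3p (chr19:40859778-40859798) on the minus strand, and miR-181c-5p (chr19:40888314-40888335) and miR-181d-5p (chr19:40888484-40888506) on the plus strand. It is followed by miR-181a-5p (chr3:43025601-43025623 plus strand, the first of 2 loci) and miR-181b-5p (chr13:52037263-52037285 plus strand), which carry the seed of miR-181c-5p and miR-181d-5p and were lower.
miR-24-2-5p: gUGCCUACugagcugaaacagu
miR-27a-3p: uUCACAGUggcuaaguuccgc
miR-23a-3p: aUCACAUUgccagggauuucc
miR-181c-5p: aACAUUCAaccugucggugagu
miR-181d-5p: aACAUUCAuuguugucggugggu
miR-181a-5p: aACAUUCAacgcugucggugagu
miR-181b-5p: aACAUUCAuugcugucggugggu
The third set shows a further miRNA that was higher, miR-190b-5p (chr2:177812471-177812491 plus strand), and a group that was lower: miR-193b-3p (chr10:1824994-1825012 plus strand), miR-365-3p (chr10:65184271-65184292 plus strand), miR-483-3p (chr1:207247865-207247886 minus strand, inside Igf2), miR-675-3p (chr1:207161766-207161786 minus strand, inside H19) and miR-224-5p (chrX:155107183-155107204 minus strand, inside Gabre).
miR-190b-5p: uGAUAUGUuugauauuagguu
miR-193b-3p: aACUGGCCcacaaaguccc
miR-365-3p: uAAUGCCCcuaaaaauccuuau
miR-483-3p: cACUCCUCcccucccgucuugu
miR-675-3p: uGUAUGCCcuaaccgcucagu
miR-224-5p: cAAGUCACuagugguuccguuu

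Counts on miRNA names totalled 2993535 to 8452854 per muscle library (median 4851994), summed over the sequencing runs of each library. Of 7534 names in the table, 3580 had a count in at least 1 of the 20 libraries and 506 were frequent enough to be tested, of which 106 were predicted miRNAs; the tested names held 99.9% of the counts. Library total and RNA integrity number did not differ detectably within rats (differences of 0.018 in log10 total, adjusted p = 0.764, and 0.28 in RIN, adjusted p = 0.219, exact sign-flip test). One library of each muscle stood apart. In soleus of rat 8 and biceps of rat 10 the median miRNA had 48.3% and 53.0% of its counts on sequences with a shifted 5′ end, against 0.517% to 0.677% in the other 18 libraries, and 46.3% and 51.3% of counts began 1 base early. Both libraries had a run on flow cell C2BUMACXX, lane 8, and without that run the medians were 0.636% and 0.843%. The counts of called names, the sequence variant shares and the arm ratios were also made without that lane.

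miR-208b-3p separated the muscles more than any other tested name. It was read at 2979, 3132, 3951, 3074, 2349, 3202, 2895, 3006, 2555 and 2995 CPM (counts per 1000000 counts of the library) in soleus of rats 2 to 11. In biceps of the same rats it was read at 119, 38.7, 124.0, 0.50, 0.53, 4.99, 6.62, 2.25, 0.668 and 1.05 CPM. The groups did not overlap, and within biceps the male rats 2, 3 and 4 lay above the other 7. The mean was 3014 ± 422 CPM in soleus and 29.8 ± 49.7 CPM in biceps (SD, n = 10). The ratio of CPM within a rat ran from 25.03 to 6143 with a median of 987. Its largest values, in rats 5, 6 and 10, rest on biceps levels of 0.50, 0.53 and 0.668 CPM. These are a few counts each, so the size of those ratios is uncertain. The fitted log2 fold change was 8.47 (SE 0.81, adjusted p = 2.65e-06, edgeR quasi-likelihood test within rats). Fold changes here come from counts scaled to each library's upper quartile, whereas CPM values are shares of the library total. The 2 scales differ, with a median log2 fold change over all names of -0.14 with the upper quartile and 0.10 with library totals. The size, but not the call, depended on the rats: the log2 fold change was 6.86 in males alone, 9.63 in females alone and 10.02 without rats 2, 3 and 4. Its other arm, miR-208b-5p, was read at 2.91 to 10.4 CPM in soleus and had no count in any biceps library, which against a floor of 3 counts over the biceps group is at least 95.5-fold higher in soleus. In whole muscle, fewer cells of a type and less RNA per cell cannot be told apart.

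miR-499-5p, the myosin-encoded miRNA of Myh7b, was the next most different abundant name. Soleus of rats 2 to 11 held 1162, 979, 1222, 979, 974, 1140, 1121, 1116, 759 and 887 CPM. Biceps held 52.1, 23.4, 53.1, 15.8, 13.2, 21.1, 16.3, 12.3, 5.68 and 16.4 CPM. The groups were far apart in every rat, and the highest biceps values again belonged to rats 4 and 2. The log2 fold change was 5.49 (SE 0.21, adjusted p = 1.59e-10, edgeR), with a median within-rat CPM ratio of 57.9. The 3p arm, miR-499-3p, moved the same way, with 10.4 CPM against 0.488 CPM and a log2 fold change of 4.24. All 4 tested myosin-encoded names, both arms of miR-208b and of miR-499, were thus higher in soleus, under each of 4 scalings. The share higher over all 506 names was 12.6% with the upper quartile.

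Heart, which makes both slow myosin and its own miR-208a, placed these levels. miR-208b-3p had a median of 465 CPM in heart (n = 10), and its heart libraries (236 to 883 CPM) lay between the soleus and the biceps ranges, while miR-499-5p had a median of 879 CPM, within the soleus range of 759 to 1222 CPM. The heart marker miR-208a-3p was at a median of 469 CPM in heart but 0.279 CPM in soleus and 0 CPM in biceps, so the soleus signal lay on miR-208b and not on its paralog. Biceps of rat 7 stood apart, with 6.57 CPM of miR-208a-3p beside 4.99 CPM of miR-208b-3p, and the source of these counts was not tested. Outside heart and muscle the highest tissue median for miR-208b-3p was 15.3 CPM, in testis. For miR-499-5p it was 146 CPM, in the tissue labelled Cortex, which the study's organ list gives as kidney cortex.

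miR-206-3p, a myomiR linked to slow muscle, regeneration and the neuromuscular junction, was read in both muscles and more in soleus. Soleus held 1383, 1710, 1973, 1784, 1445, 1449, 1953, 1341, 1739 and 2065 CPM in rats 2 to 11. Biceps held 456, 277, 439, 338, 270, 193, 318, 460, 284 and 239 CPM. Soleus stood 2.92 to 8.63 times above biceps of the same rat, the groups did not overlap, and the log2 fold change was 2.16 (SE 0.16, adjusted p = 3.02e-07, edgeR). In heart its median was 0.236 CPM, and the next tissue after the muscles was cerebellum with a median of 19.9 CPM. The neighbouring miR-133b-5p followed, with 7.66 ± 1.11 CPM against 1.31 ± 0.908 CPM (log2 fold change 2.40).

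miR-133b-3p, the more abundant arm, was higher in soleus of 9 of 10 rats. Soleus held 302, 269.9, 499.9, 300.3, 297, 142, 1283, 293, 300.3 and 184 CPM in rats 2 to 11. Biceps held 129, 104, 85.1, 81.4, 95.1, 76.9, 117, 104, 792 and 93.3 CPM. The 2 extreme values belonged to soleus of rat 8 and biceps of rat 10, the libraries with the lane 8 run. The log2 fold change was 1.19 (SE 0.32, adjusted p = 0.0103, edgeR) with all runs and 1.21 (adjusted p = 0.000169) without lane 8. In females alone it was 0.69 with an adjusted p of 0.403, and the fit without the rat pairing gave 0.97 with an adjusted p of 0.103. Because miR-133b-3p shares its seed and almost its whole sequence with the far more abundant miR-133a-3p, reads could be split between the names and its level is uncertain.

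**Figure D1:**
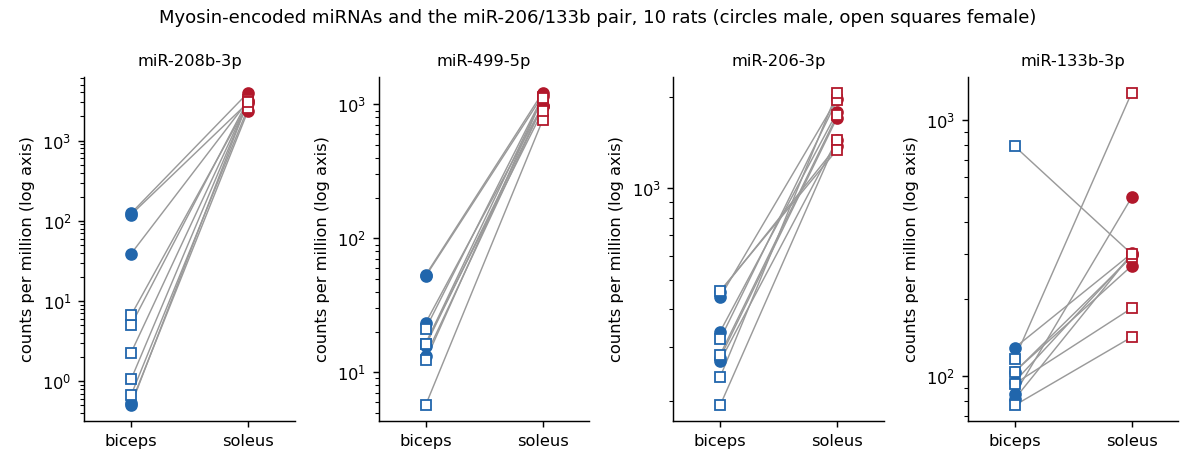
CPM (log axis) of miR-208b-3p, miR-499-5p, miR-206-3p and miR-133b-3p in biceps (blue) and soleus (red), with a line joining the muscles of each of the 10 rats; filled circles are males and open squares females. Soleus lies above biceps in all 10 rats for the first 3 miRNAs and in 9 of 10 for miR-133b-3p, whose extreme values of 1283 and 792 CPM are soleus of rat 8 and biceps of rat 10.

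The myomiRs miR-1 and miR-133a, which are made in all striated muscle, were mostly lower in soleus. miR-133a-3p ranged from 210507 to 260500 CPM in soleus (median 233993) and from 267350 to 325779 CPM in biceps (median 282357). It was lower in soleus of all 10 rats, with no overlap and a log2 fold change of -0.56 (SE 0.15, adjusted p = 0.0115, edgeR). miR-1-3p had 983 ± 111 CPM in soleus and 1371 ± 253 CPM in biceps (log2 fold change -0.71, adjusted p = 0.00186), and was also lower in all 10 rats. Names that hold miR-1-3p, miR-1a-3p or miR-1, alone or joined to others such as predicted miRNAs, numbered 12, and their sum was 3631 ± 347 CPM in soleus against 4228 ± 466 CPM in biceps, lower in 8 of 10 rats. The shares over all 506 names were 12.6% higher and 20.6% lower with the upper quartile. Of the 5 tested names in the list of miR-1 and miR-133a, 3 were lower (2 under library totals), 1 was not called (miR-1a-3p, 439 against 356 CPM, log2 fold change 0.31, adjusted p = 0.393) and 1 was higher. The name that was higher is listed as miR-1 with no arm, at 38.9 ± 8.46 CPM against 12.7 ± 3.75 CPM (log2 fold change 1.403). Which reference entry it stands for is not given in the sources used here. Its most counted sequence (23 bases, 43.0% of its counts) is the most counted one of miR-1a-3p (22 bases) with a c added at the 3′ end.

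Across all 506 tested names, 64 were higher in soleus (12.6%) and 104 were lower (20.6%) at an adjusted p under 0.05 (edgeR), in all 168 (33.2%). The CPM ranges of the muscles did not overlap for 44 names (8.7%), of which 30 were called higher and 12 called lower. CPM was higher in soleus of all 10 rats for 57 names (11.3%) and lower in all 10 for 33 (6.52%). The called differences over 2-fold were 26 higher and 35 lower. The balance of directions depended on scaling, because the median of all names moved from -0.14 with the upper quartile to 0.10 with library totals: the higher names made up 38.1% of called names with the upper quartile, 44.1% with TMM, 47.6% with DESeq2 size factors and 63.8% with library totals. Called in the same direction under all 4 scalings were 135 names, 63 higher and 72 lower. Without lane 8 the counts were 60 higher and 115 lower. By flow cell, the runs on flow cell D1GBMACXX alone gave 20 higher and 132 lower of 253 names tested there, with a median over all names of -0.49, and the runs on the other flow cells gave 58 higher and 111 lower.

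**Figure D2:**
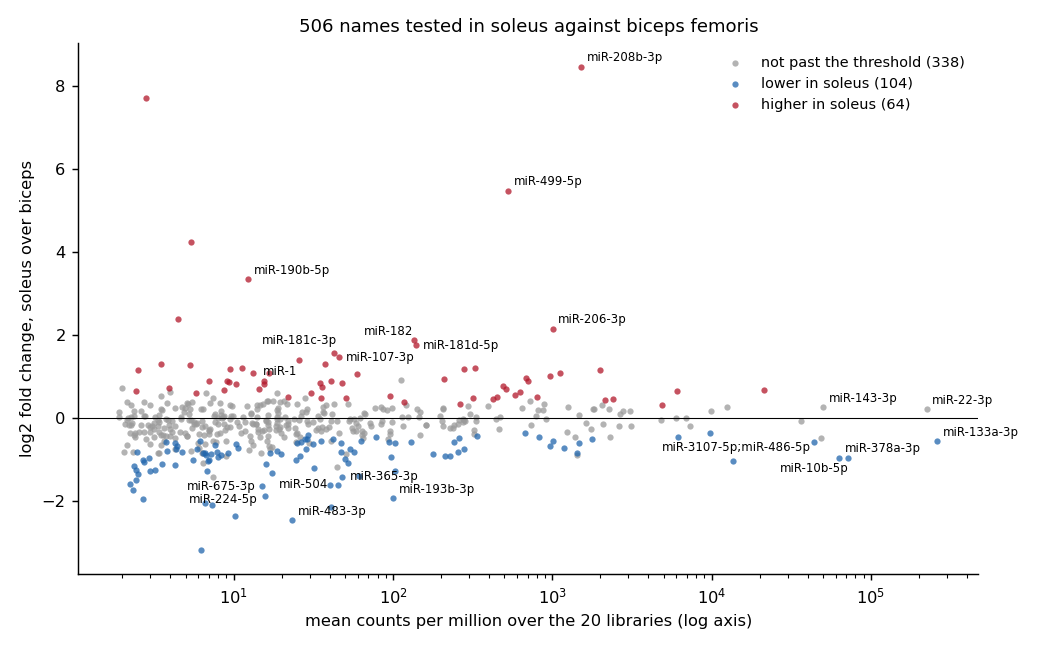
Log2 fold change of soleus over biceps (upper quartile scaling) against mean CPM over the 20 libraries (log axis), one point per tested name, with 64 names higher in soleus in red, 104 lower in blue and 338 not past the threshold in grey. miR-208b-3p at 8.47 and miR-499-5p at 5.49 stand far above the other abundant names, while the most abundant ones, miR-22-3p and miR-133a-3p, lie within 1 log2 unit of 0.

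The 8 leading names held 77.9% of counts in soleus and 82.1% in biceps, and miR-22-3p with miR-133a-3p alone held 49.5% and 47.7%. miR-22-3p, a miRNA of heart and skeletal muscle, was read at 222676 to 306211 CPM in soleus (median 260115) and 176907 to 203743 CPM in biceps (median 187133), higher in all 10 rats with no overlap. Its call depended on scaling. The log2 fold change was 0.22 under the upper quartile, where it was not called (adjusted p = 0.178, edgeR). It was called under TMM (0.26, adjusted p = 0.0205, edgeR), library totals (0.47, adjusted p = 4.98e-06, edgeR) and DESeq2 (0.32, adjusted p = 0.00319). miR-378a-3p, encoded in the metabolic coactivator gene Ppargc1b, was lower in soleus of all 10 rats, with 48165 ± 6304 CPM against 78437 ± 7821 CPM (log2 fold change -0.95, adjusted p = 0.000241). miR-10b-5p, a HOX-cluster miRNA, was lower in all 10 rats as well, with 38008 to 95027 CPM (median 50767) in soleus and 46670 to 138890 CPM (median 89774) in biceps (log2 fold change -0.95). miR-30d-5p and miR-30a-5p fell by 1.03 and 0.56 on the log2 scale.

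Among names of at least 10 CPM that moved alike in all 10 rats, the largest fold change after the myosin-encoded names was that of miR-190b-5p, at 22.8 ± 9.17 CPM in soleus and 1.84 ± 0.705 CPM in biceps (SD, n = 10). Its soleus range was 12.0 to 40.8 CPM and its biceps range 1.00 to 3.07 CPM, a gap in every rat, with a log2 fold change of 3.35 (SE 0.22, adjusted p = 1.13e-07, edgeR). miR-182 and miR-183-5p, which share a cluster on chromosome 4 and are known from sensory organs, were higher, with log2 fold changes of 1.88 and 1.19. miR-182 ran from 132.6 to 538 CPM in soleus, the top values in rats 5 and 11 (443 and 538 CPM), and from 22.1 to 93.7 CPM in biceps. miR-107-3p, encoded in the pantothenate kinase gene Pank1, had 69.9 ± 9.92 CPM against 21.6 ± 5.12 CPM with no overlap (log2 fold change 1.47, SE 0.12). miR-210-3p, the miRNA best known for its induction by low oxygen, had 54.9 ± 9.22 CPM against 19.6 ± 7.54 CPM (log2 fold change 1.30, higher in all 10 rats, ranges overlapping), and miR-185-5p had 16.6 ± 4.51 CPM against 5.96 ± 1.32 CPM (log2 fold change 1.21).

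The cluster of miR-23a, miR-27a and miR-24-2 on chromosome 19 and its relatives rose together. Of 11 tested names in the miR-23/27/24 list, 9 were higher, none lower and 2 not called, beside 12.6% higher and 20.6% lower over all names. The median log2 fold change was 0.90 beside -0.14 over all names. Under TMM, library totals and DESeq2, 10, 11 and 11 were higher. miR-27a-3p was read at 2513 to 3475 CPM in soleus (median 2802) and 870.1 to 1646 CPM in biceps (median 1076). Every soleus library was above every biceps library, and the log2 fold change was 1.17 (SE 0.10, adjusted p = 6.88e-07). miR-23a-3p (1366 ± 231 CPM against 563 ± 93.3 CPM, log2 fold change 1.03), miR-24-2-5p (481 ± 68.8 CPM against 175 ± 25.5 CPM, log2 fold change 1.21) and the paralog miR-27b-3p (28135 ± 2212 CPM against 14812 ± 1731 CPM, log2 fold change 0.68) showed no overlap either.

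The miR-181 family split by locus. miR-181c and miR-181d lie together on chromosome 19 and were higher in soleus: miR-181d-5p had 223 ± 44.5 CPM against 56.2 ± 16.7 CPM (log2 fold change 1.76, SE 0.16, adjusted p = 1.48e-06) and miR-181c-3p had 66.2 ± 7.03 CPM against 19.3 ± 6.17 CPM (log2 fold change 1.57), with no overlap. The names from the miR-181a and miR-181b loci were lower: miR-181a-1-3p had 37.8 ± 6.32 CPM against 66.4 ± 9.32 CPM with no overlap (log2 fold change -1.07, SE 0.12) and miR-181b-5p had 905 ± 189 CPM against 1108 ± 101 CPM (log2 fold change -0.56). Among 9 tested members 4 were higher and 4 lower, beside 12.6% and 20.6% of all names, and 4 and 3 under library totals. The others called were miR-181b-5p;miR-181d-5p (1.31), where reads fit both, and miR-181a-2-3p (-0.93). The 4 mature 5p forms printed above carry 1 seed, yet miR-181c-5p had a log2 fold change of 0.98 (adjusted p = 3.04e-06) while miR-181a-5p, the more abundant one at 9438 ± 1384 CPM in soleus, had -0.35 (adjusted p = 0.0191, and -0.10 with an adjusted p of 0.423 under library totals).

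Members of the miR-15/16 seed family were higher or not called. In the miR-15 family list, which also holds miR-16, miR-195 and miR-497, 5 of 8 tested names were higher and none lower, the same counts under all 4 scalings. Over all 506 names 12.6% were higher and 20.6% lower with the upper quartile. miR-195-5p (667 ± 107 CPM against 354 ± 105 CPM, log2 fold change 0.71) and miR-497-5p (805 ± 142 CPM against 450.2 ± 140 CPM, log2 fold change 0.63), neighbours on chromosome 10, were higher in all 10 rats with overlapping ranges. miR-322-5p, a miRNA of muscle differentiation that carries the same seed, had 651 ± 84.0 CPM against 328 ± 77.2 CPM with no overlap (log2 fold change 0.77), while 5 of 7 tested names of the miR-322 cluster were not called and miR-351-5p was lower (-0.45). Both tested members were higher in the list of miR-132 and miR-212 (miR-132-3p 1.08, miR-212-3p 1.17) and in that of miR-221 and miR-222 (miR-221-3p 0.50, miR-222-3p 0.60), each in 9 of 10 rats.

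The names that were lower in soleus were led by miRNAs of imprinted loci and by miR-193b. miR-483-3p, which lies in the growth factor gene Igf2, was read at 4.36 to 10.6 CPM in soleus (median 6.16). In biceps of rats 2 to 6, the males, it was read at 17.9, 6.97, 15.1, 29.5 and 19.5 CPM, and in rats 7 to 11, the females, at 70.5, 39.6, 91.6, 50.8 and 53.6 CPM. It was lower in soleus of all 10 rats, with a log2 fold change of -2.45 (SE 0.40, adjusted p = 0.000252, edgeR), -1.41 in males alone and -3.47 in females alone. The difference between the sexes had an unadjusted p of 0.000755 and an adjusted p of 0.191, so it did not pass the threshold. All 3 tested names of the Igf2-H19 list, which include both arms of miR-483, were lower under each of 4 scalings. The share lower over all 506 names was 20.6% with the upper quartile. In this list miR-483-5p had a log2 fold change of -2.03. miR-675-3p, which is processed from the H19 noncoding RNA, had 8.40 ± 2.84 CPM against 21.8 ± 6.48 CPM with no overlap (-1.64, SE 0.18).

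miR-193b-3p, a miRNA known from adipocyte and muscle differentiation, had 29.9 to 64.9 CPM in soleus (median 45.5) and 115 to 206 CPM in biceps (median 153). No soleus library reached the biceps range, and the log2 fold change was -1.93 (SE 0.18, adjusted p = 2.3e-06, edgeR). All 3 tested names of the list of miR-193 and miR-365 fell, under each of 4 scalings, with miR-365-3p at 30.2 ± 8.50 CPM against 65.7 ± 6.44 CPM (-1.404) and miR-193-3p at -0.87. Beside them, 20.6% of all 506 names were lower with the upper quartile. Also lower in all 10 rats were miR-224-5p (7.60 ± 2.81 CPM against 23.8 ± 9.52 CPM, log2 fold change -1.87), miR-504 (22.6 ± 5.50 CPM against 57.7 ± 14.0 CPM, -1.60), miR-218a-5p (11.2 ± 3.43 CPM against 23.6 ± 6.22 CPM, -1.32) and miR-582-3p (11.4 ± 2.17 CPM against 20.5 ± 3.86 CPM, -1.10).

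**Figure D3:**
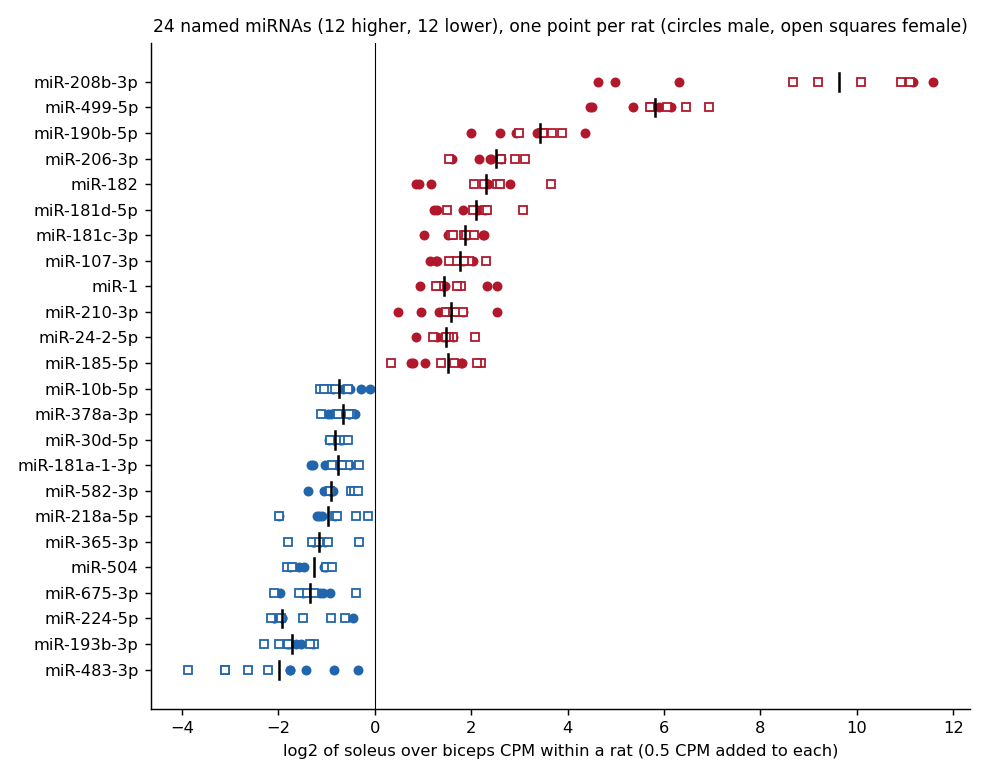
Log2 of soleus over biceps CPM within each rat, after adding 0.5 CPM to each, for the 12 names with the largest positive and the 12 with the largest negative fold changes chosen by the rule; circles are males, open squares females and black bars medians. All points of the upper 12 lie right of 0 and all points of the lower 12 lie left of it, which the rule required, and the leftmost point is miR-483-3p in rat 7, a female.

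The imprinted Dlk1-Dio3 region, a large miRNA cluster on chromosome 6 expressed from the maternal copy, was tested with 60 names, of which 22 were lower, 2 higher and 36 not called, beside 20.6% lower and 12.6% higher over all names (median log2 fold change -0.41 beside -0.14 over all names). Under library totals 13 were lower and 2 higher, and the median was -0.17. The 2 that were higher, miR-381-3p and miR-487b-3p, were picked out after their values were seen. miR-381-3p had 892 to 3094 CPM in soleus (median 1411) and 407 to 764 CPM in biceps (median 589.9), no overlap and a log2 fold change of 1.10 (SE 0.13), and miR-487b-3p had 47.9 ± 13.2 CPM against 22.1 ± 4.19 CPM (0.85, SE 0.14). The abundant members miR-127-3p (5775 ± 2293 CPM against 6464 ± 1827 CPM, log2 fold change -0.44, adjusted p = 0.032) and miR-434-3p (-0.50) lost their calls under library totals, and miR-411-5p had a log2 fold change of -0.25 (adjusted p = 0.21).

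The lists that follow are set beside 12.6% higher and 20.6% lower over all 506 names with the upper quartile. Over all names 90, 127 and 100 were higher under TMM, library totals and DESeq2. Counts near such shares, as in the HOX and miR-378 lists, do not set a list apart. In the let-7 list 2 of 26 tested names were higher with the upper quartile (let-7b-3p and miR-98-3p, log2 fold changes 0.85 and 0.82). Under TMM, library totals and DESeq2, 6, 12 and 10 were higher, with none lower. The miR-30 list had 2 higher (miR-30e-3p, 0.56, and miR-30a-3p;miR-30e-3p, 0.89) and 6 lower of 15, and 4 and 4 under library totals. The miR-378 list had 1 lower of 6 (miR-378a-3p) and the miR-29 list 1 lower of 6 (miR-29c-5p, -0.84). The HOX list had 1 higher (miR-196b-5p, 0.49) and 2 lower (both arms of miR-10b) of 8. The list of miR-99, miR-100 and miR-125 had 1 higher of 11 (miR-125a-5p, 0.47), which became 4, 6 and 5 under TMM, library totals and DESeq2. On flow cell D1GBMACXX alone miR-125a-5p had -0.01, beside a median of -0.49 over the names tested there. None of 13 tested names of the miR-17-92 list, a family linked to proliferation, and neither of 2 in that of miR-204 and miR-211 passed the threshold with the upper quartile, though miR-204-5p was higher under TMM, library totals and DESeq2 (adjusted p = 0.046, 0.0186 and 0.0132). In the miR-34 family list 1 of 2 was lower (miR-34c-5p, -0.91), and in the list of miR-199 and miR-214 1 of 3 was higher (miR-214-3p, 0.54, adjusted p = 0.0376). The call of miR-214-3p was lost when any of rats 3, 4, 5, 6, 7, 8, 10 or 11 was left out, in each sex alone, on each set of flow cells and in rats with no re-extracted muscle, where its log2 fold change was 0.21.

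**Figure D4:**
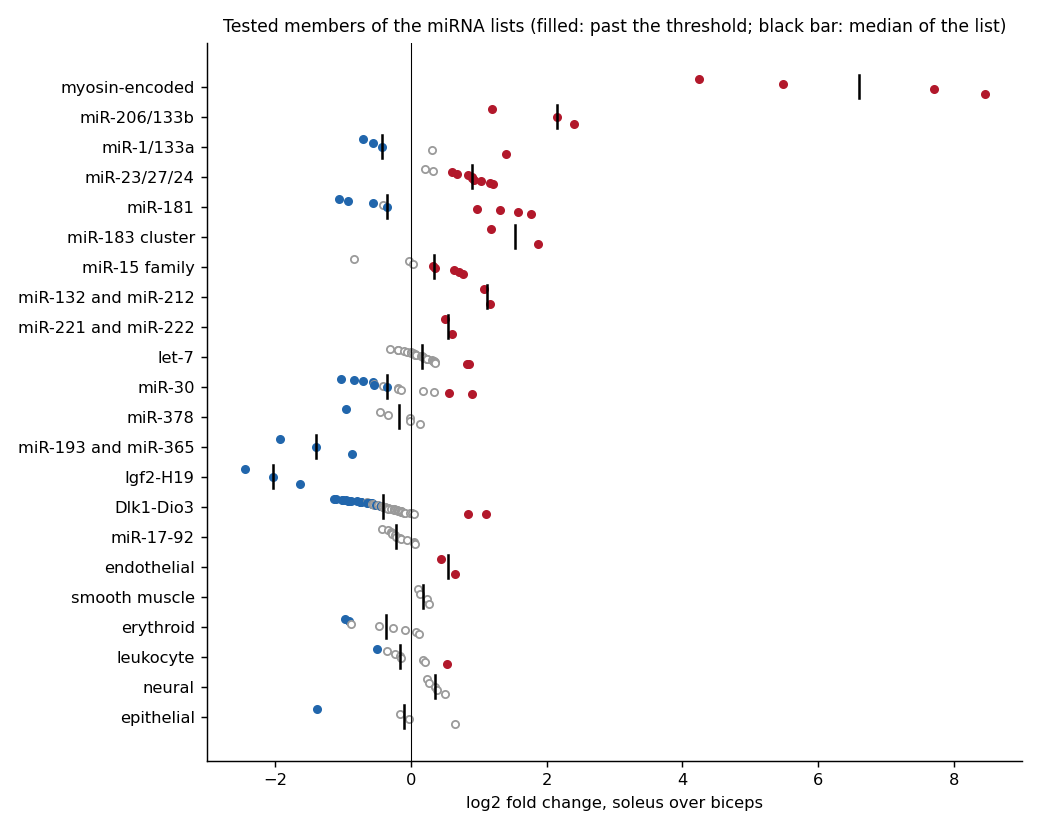
Log2 fold change of soleus over biceps for the tested members of 22 of the miRNA lists, one point per name, filled red where higher and blue where lower past the threshold and open grey otherwise, with a black bar at the median of the list. The myosin-encoded list lies furthest right with a median of 6.60 and the Igf2-H19 list furthest left with -2.03, while the miR-181 list has points on both sides of 0.

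Markers of other cells that a piece of muscle can hold were read beside these lists. Over all names 12.6% were higher and 20.6% lower with the upper quartile. The endothelial list was higher in soleus, with both tested names called. miR-126a-3p, encoded in Egfl7, had 2401 to 2935 CPM in soleus and 1256 to 2042 CPM in biceps with no overlap (log2 fold change 0.44, adjusted p = 0.00412, edgeR). miR-126a-5p had 7860 ± 661 CPM against 4335 ± 1168 CPM (0.65). On flow cell D1GBMACXX alone, where the median of the names tested was -0.49, miR-126a-3p had -0.08 and miR-126a-5p 0.17 (adjusted p = 0.12 for miR-126a-5p, edgeR). The summed level of that list ran from 9008 to 11477 CPM in soleus and from 4192 to 8577 CPM in biceps. Their part in the other differences was not tested. None of 4 tested smooth muscle names was called with the upper quartile (miR-143-3p 58818 ± 12229 CPM against 41772 ± 11047 CPM, log2 fold change 0.27, adjusted p = 0.0666, edgeR). However, 1 was higher under TMM, 1 under DESeq2 and 2 under library totals. In the erythroid list 2 of 8 were lower, beside 20.6% of all names, and none higher (miR-486-3p, -0.91, and miR-3107-3p;miR-486-3p, -0.97, a miRNA also made in muscle), and the red cell marker miR-451-5p had medians of 109 CPM in soleus and 83.9 CPM in biceps. In the leukocyte list miR-150-5p was higher (0.52) and miR-223-3p lower (-0.50, not called under library totals). Neural names gave no call among 5 tested, but 1 was higher under TMM and 2 under library totals and DESeq2. miR-124-3p had medians of 1.48 and 1.398 CPM and miR-9a-5p of 13.5 and 12.9 CPM. Soleus of rats 10 and 11 stood apart, with miR-124-3p at 31.2 and 17.4 CPM and miR-9a-5p at 73.6 and 65.0 CPM. Soleus of rat 6, at 8.33 and 44.2 CPM, also lay above the biceps maxima of 7.02 and 19.04 CPM. The part of these libraries in other differences was not tested. The epithelial list had 1 lower of 4, miR-205 (38.8 ± 17.2 CPM against 84.2 ± 34.9 CPM, log2 fold change -1.38, a miRNA of skin and other squamous epithelium), while miR-200c-3p stood at medians of 0.351 and 0.345 CPM. Among names of other organs 1 of 3 was higher, miR-192-5p (0.52, and -0.24 on flow cell D1GBMACXX alone), and the liver and pancreas markers miR-122-5p, miR-216a-5p and miR-217-5p were at medians of 2.12 CPM or less in both muscles.

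The muscle difference was compared between the sexes by an interaction term, which passed for 1 of 506 names (0.198%). That name was a predicted miRNA, chr16_39992-5p, with an interaction of -3.17 on the log2 scale, female minus male (adjusted p = 0.049, edgeR), and 32 names had an unadjusted p under 0.05. No name passed under TMM or without lane 8. Counts called with 5 rats of 1 sex were 43 higher and 46 lower in males and 43 higher and 72 lower in females. The sexes' counts were not compared by a test.

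Arm ratios were compared at 35 loci where both arms of the hairpin were tested and at least 1 arm was a named miRNA. The ratio of 3p to 5p counts differed between the muscles at 13 of them (37.1%, exact sign-flip test within rats, adjusted p under 0.05). It was higher in soleus at 8 (22.9%) and lower at 5 (14.3%). Some named miRNAs were chosen for large fold changes in these data, so these shares do not stand for all loci. For miR-378a the log2 ratio of 3p to 5p was 6.66 ± 0.206 in soleus and 7.60 ± 0.255 in biceps, a difference of -0.94 seen in all 10 rats. The range was 6.44 to 7.15 in soleus and 7.14 to 8.09 in biceps, so the groups just met. miR-378a-5p itself had a log2 fold change of -0.01 (adjusted p = 0.974) while the 3p arm fell by 0.95. The ratio was lower in soleus of all 10 rats for miR-322 (-0.83) and miR-126a (-0.21), and higher in all 10 for miR-181c (0.59) and miR-30d (0.50). miR-499 differed by -1.33, with few counts of its 3p arm in biceps. miR-208b, one of the 8 that were higher, differed by 3.48, but its 5p arm had no count in any biceps library, so its biceps ratio was set by the 0.5 added to each count and says nothing of its arms. Without lane 8 the ratio differed at 9 loci (25.7%).

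Sequence variants of a miRNA (isomiRs) were compared for 38 named miRNAs with at least 1000 counts in every library with all runs. This floor was not applied again without lane 8, where soleus of rat 8 kept 570034 counts on all names and biceps of rat 10 kept 365580. The rarer of the 38 can fall below it in those libraries. With all runs the share of counts on the most counted sequence differed for none of the 38 (0%, exact sign-flip test with adjustment; 2 had an unadjusted p under 0.05), and the share with a shifted 5′ end for none either (0%; 1 with an unadjusted p under 0.05). Without lane 8 they differed for 10 (26.3%) and 12 (31.6%). The lane 8 runs thus decided these calls. miR-30a-5p then had 53.4% ± 2.87 of its counts on the most counted sequence in soleus and 66.3% ± 3.51 in biceps (difference -12.9 points, lower in all 10 rats, groups not overlapping). Of the other 9, lower shares in soleus were found for miR-30d-5p (47.9% against 57.4%), miR-1-3p (69.1% against 77.5%), miR-127-3p (33.4% against 41.6%), miR-92a-3p (58.5% against 66.3%), miR-181a-5p (44.2% against 49.2%), miR-351-5p (43.8% against 48.3%), miR-411-5p (42.0% against 46.1%) and let-7i-5p (59.2% against 61.8%). miR-378a-3p alone went the other way (48.1% against 42.6%).

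A shifted 5′ end moves the seed by the same number of bases. Without lane 8, miR-378a-3p had 9.06% ± 0.696 of its counts on sequences with a shifted 5′ end in soleus (8.49% to 10.4%) and 5.75% ± 0.488 in biceps (5.27% to 7.05%), higher in all 10 rats with no overlap (adjusted p = 0.0093, exact sign-flip test). miR-411-5p rose from 44.5% ± 1.70 in biceps to 50.8% ± 2.88 in soleus, in all 10 rats, and miR-133a-3p fell from 50.1% ± 2.04 to 47.8% ± 1.37, also in all 10. The other differences were smaller: miR-199a-3p (22.8% against 21.3%), miR-29a-3p (12.6% against 14.5%) and miR-10b-5p (10.6% against 9.86%) moved by less than 2 points, and the remaining 6 had a mean under 3% of counts shifted in either muscle.

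**Figure D5:**
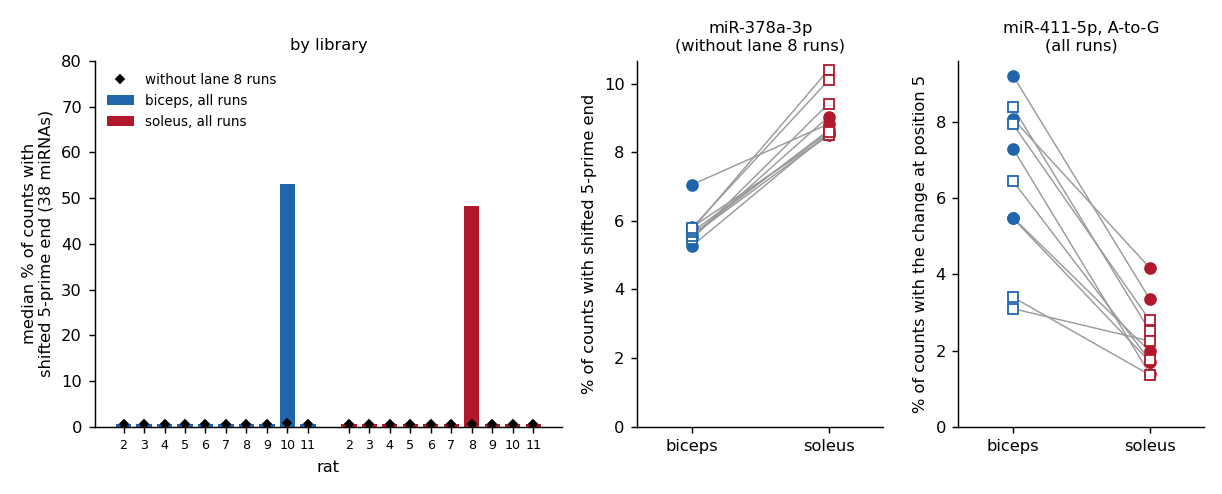
Left, the median percentage of counts with a shifted 5′ end over 38 miRNAs in each library (bars, all runs; diamonds, without lane 8 runs), where soleus of rat 8 reaches 48.3% and biceps of rat 10 53.0% with all runs; middle, the same percentage for miR-378a-3p by rat without lane 8; right, the percentage of miR-411-5p counts with an A-to-G change at position 5 by rat with all runs. Lines join the muscles of a rat, circles are males and open squares females. The middle lines all rise from biceps to soleus and the right ones all fall.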

How the data were processed

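Tissue pieces in RNAlater were extracted with miRNeasy, and libraries were made with TruSeq small RNA kits and read by Illumina sequencing. As stated by the study, the authors trimmed adapters and low-quality ends with cutadapt 1.4.1, discarded short reads and reads with N, collapsed identical sequences and used miRDeep2 to assign them to miRBase hairpins, first of rat and after that of other species, joining names where a sequence aligned to more than one precursor. They deposited raw counts per run, by miRNA name and by sequence. Ligation and amplification bias differs between miRNAs and reads carry no molecular identifiers, so levels of different names are read with caution. The SDs and SEs given here come from the 10 rats and do not cover that bias.

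From 44 runs of the 20 muscle libraries, 42 were summed by library and 2 duplicate deposits were set aside. CPM is over all names of a library. edgeR 4.0.16 (R 4.3.3) fitted rat plus muscle by the quasi-likelihood test with upper-quartile scaling, which 1 analysis group of the study used on its own counts, after edgeR's filter on low counts, with Benjamini-Hochberg adjustment over 506 names and a threshold of 0.05. SE is the log2 fold change divided by the root of F. Both muscles of a number came from the same rat by the labels, which is the pairing; deviations of the paired libraries correlated by -0.106 to 0.372 (median 0.0844, against 0.00119 for libraries of different rats). Shares and arm ratios were tested by exact two-sided sign flips over the 10 rats, 1024 in all, the smallest p being 0.00195. RIN ranged from 6.9 to 8.5, and 2 soleus and 4 biceps samples were re-extracted. The statistics were tested on simulated data. Members, lists and the rule for named miRNAs (the markers, all tested names of the myosin-encoded group and of miR-1, miR-133a, miR-206 and miR-133b, the 12 largest changes in each direction among names of at least 10 CPM that moved alike in all 10 rats, the 8 most abundant per muscle, up to 3 sex interactions and 2 to 4 examples per list) were chosen with earlier results of these data known. Members of a count of 5 or fewer that the rule leaves out were named after their values were seen. Alternatives were TMM, library totals, DESeq2 1.42.0, no filter, no pairing, other sets of runs or rats and each rat left out.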

Additional observations from a re-analysis of the deposited data

Results flagged for a closer look

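A library stood apart from the other 9 of its muscle, by its gap to the nearest value relative to the whole range, in 44 of 204 groups examined. The rule flags about 5% of groups when values are normally distributed and independent. Whether that holds for these CPM values was not tested, so 5% is not a chance rate for them. Biceps of rat 2 accounted for 13 of them, all at the high end: miR-181c-3p (35.04 CPM), miR-24-2-5p (234 CPM), miR-27a-3p (1646 CPM), miR-27b-3p (18971 CPM), miR-132-3p (20.9 CPM), miR-212-3p (3.63 CPM), miR-221-3p (67.5 CPM), miR-214-3p (218.8 CPM), miR-199a-5p (529 CPM), miR-34a-5p (59.2 CPM), miR-34c-5p (62.2 CPM), miR-93-5p (268 CPM) and miR-142-5p (386 CPM). For the first 7 of these the soleus group was higher than biceps, and the biceps library of rat 2 lay nearest to it. For each of the others that library lay above every soleus library. Examples are miR-199a-5p (soleus maximum 455 CPM) and miR-214-3p (soleus maximum 152 CPM), which was also called higher in soleus.

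The libraries with a lane 8 run came next. Soleus of rat 8 was highest for miR-133b-3p (1283 CPM), miR-1a-3p (990.2 CPM), miR-3107-5p (2161 CPM), miR-486-5p (8136 CPM) and miR-218a-5p (19.8 CPM) and lowest for miR-378a-3p;miR-378b (568 CPM). Biceps of rat 10 was highest for miR-133b-3p (792 CPM), miR-1a-3p (1265 CPM), miR-3107-5p (3774 CPM), miR-486-5p (12689 CPM) and chr16_39992-5p (23.7 CPM), and lowest for miR-378a-3p;miR-378b (718 CPM) and let-7i-5p (2136 CPM).

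Soleus of rat 9 was highest for miR-215 (1481 CPM, where the group median was 28.9 CPM), miR-192-5p (1099 CPM), miR-194-5p (96.4 CPM) and miR-375-3p (17.4 CPM), names known from gut, kidney and endocrine tissue. Soleus of rat 10 was highest for miR-10a-5p (24992 CPM), miR-10b-5p (95027 CPM), miR-125b-5p (3100.4 CPM), miR-26a-5p (47398 CPM) and miR-365-3p (51.2 CPM) and lowest for miR-29c-3p (140.0 CPM). Soleus of rat 11 was highest for miR-222-3p (75.2 CPM) and miR-1-3p (1221 CPM). The others were soleus of rat 4 for miR-208b-3p (3951 CPM), soleus of rat 5 for let-7c-5p (5503 CPM), soleus of rat 6 for miR-378a-5p (652 CPM), biceps of rat 3 for miR-338-3p (129.7 CPM), biceps of rat 5 for miR-203a-3p (51.6 CPM) and biceps of rat 6 for miR-365-3p (81.9 CPM).

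The muscle difference of chr16_39992-5p differed between the sexes by -3.17 on the log2 scale, female minus male. This name also held the high value in biceps of rat 10, a female.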

How the results depend on the processing

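With 64 names higher and 104 lower in soleus as the base, the higher count was 90 (lower 114) under TMM, 100 under DESeq2, 127 under library totals, 35 with no filter on low counts, 41 in rats with no re-extracted muscle, 20 on flow cell D1GBMACXX alone and 57 to 68 with each rat left out; the cause was not tested. The lower count was 46 in males alone, 54 with no filter, 59 in rats with no re-extracted muscle and 91 to 122 with each rat left out. Without the pairing by rat, 68 were higher and 109 lower, and of 62 named calls miR-133b-3p, miR-214-3p, miR-127-3p and miR-351-5p were lost; the block changed no other named call. No named call was lost under DESeq2 or TMM or without lane 8, while 27 were lost with no filter, 18 in males alone, 12 in females alone, 18 in rats with no re-extracted muscle and 12 of the 48 tested on flow cell D1GBMACXX. After seeing the data, rats 8 and 10 were left out (55 higher, 117 lower), and rats 2, 3 and 4 (49 higher, 117 lower). The sex interaction passed for 0 names under TMM, library totals, no filter, no pairing or without lane 8, and for 0 to 2 with each rat left out.

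On flow cell D1GBMACXX alone the log2 fold change reversed for miR-215 (-1.99), miR-192-5p (-0.24), miR-125a-5p (-0.0062), miR-126a-3p (-0.084), miR-16-5p (-0.14), miR-145-5p (-0.44), miR-199a-3p (-0.40), miR-34a-5p (-0.62), miR-25-3p (-0.40) and let-7f-5p (-0.47). The median over the 253 names tested there was -0.49, beside -0.14 over 506 names with all runs. Of the reversed names only miR-215 and miR-34a-5p lay below that flow cell's median. Under library totals miR-26a-5p reversed and passed the threshold (0.19, adjusted p = 0.0245, edgeR). Other named miRNAs changed sign under library totals without passing the threshold in either fit, such as miR-378a-5p (0.24) and miR-450a-5p (0.18). Under DESeq2 miR-26a-5p changed sign as well (0.034) but did not pass. The share on the most counted sequence differed for 10 names without lane 8 and 14 on that flow cell, where miR-22-3p reversed (-0.176 points). The share with a shifted 5′ end differed for 12 and 7, and reversed for miR-22-3p (0.103 without lane 8, 0.0960 on that flow cell), miR-30a-5p (0.0512 and 0.0457) and, without lane 8, miR-30e-5p (0.193). Depth limits names of a few CPM, such as miR-499-3p in biceps, to a handful of counts per library, and miR-208b-5p had none in biceps.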

Other observations

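Among the sequence variants, 223 A positions of 60 abundant miRNAs were read for an A-to-G change, and 1 had a mean over 1% of counts: A5G of miR-411-5p, counted from 1 at the 5′ end of its most counted sequence, inside the seed. Adenosine deamination to inosine, which is read as G, is known for this miRNA. The change was chosen after its values were seen. In soleus of rats 2 to 11 it made up 1.98%, 1.71%, 4.17%, 1.38%, 3.35%, 1.36%, 1.74%, 2.51%, 2.25% and 2.79% of the counts. In biceps it made up 5.49%, 5.47%, 8.08%, 7.30%, 9.21%, 3.40%, 6.45%, 8.38%, 3.10% and 7.94%. It was lower in soleus of all 10 rats, although the ranges of the muscles overlapped, with a mean of 2.32% ± 0.905 against 6.48% ± 2.09 (SD, n = 10; exact two-sided sign-flip p = 0.00195, the smallest that 10 rats can give). The reads covering the position numbered 3519 to 16525 per library. The A-to-G share of miR-411-5p differed by -4.16 points with all runs, -4.18 without lane 8 and -3.87 on flow cell D1GBMACXX alone. The mature miR-411-5p, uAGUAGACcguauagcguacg with the seed in capitals, lies at chr6:134544604-134544624 on the plus strand (RefSeq, GRCr8) and its total level did not differ detectably.

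Predicted miRNAs, which the authors' tool proposed from the reads, made up 106 of the tested names, and 24 of them were lower in soleus and 1 higher, beside 20.6% and 12.6% over all 506 names. Among the single and joined known names the counts were 60 higher and 80 lower.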
